A study of Mus musculus with 14 samples.

Results

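The mitochondrial fission and fusion machinery was followed here as 10 genes of the superior mesenteric artery (SMA) of mice, read by symbol from a table of 46095 gene symbols. They were chosen by function: Dnm1l, which encodes the fission GTPase Drp1, its receptors and adaptors Fis1, Mff, Mief1 and Mief2, the fusion GTPases Mfn1, Mfn2 and Opa1, and the Opa1 proteases Oma1 and Yme1l1. All 10 passed the filter on low counts, as did 17693 genes in all. The study asked which pathways depend on Drp1 in the artery under physiological and ischemic conditions.

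RNA-seq covered 14 mice of 8 weeks on the C57BL/6 background, each giving 1 library of whole artery. Of the WT mice (Drp1 +/+), 3 were kept under normal conditions and 3 underwent ischemia, and of the Drp1 KO mice 4 were kept and 4 underwent it. The labels write the KO genotype as Drp1 flox/+ and name no Cre, whereas the paper describes a heterozygous loss made with CRISPR/Cas9 and a frameshift, so KO is the group's name and not a statement that both alleles were lost. The labels of the ischemia libraries carry 2 h, whereas a longer period is stated in the paper, whose methods describe the model as bleeding through the femoral artery, in rats and likewise in Drp1 KO mice. The library of WT normal replicate 3 was read on lane 1 and the other 13 on lane 8. Nothing in the labels says that the mice came from separate litters or days.

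Mitochondria divide when Drp1 is drawn from the cytosol to receptors on their outer membrane, assembles into rings there and constricts the organelle. Outer membranes are joined by the mitofusins Mfn1 and Mfn2, and inner membranes by Opa1, whose long and short forms are set by the proteases Oma1 and Yme1l1. In the artery wall this balance is known for its part in smooth muscle growth and contraction, and in fat it is known for remodelling mitochondria as brown adipocytes make heat. Drp1 activity is set largely by phosphorylation and Opa1 activity by cleavage, neither of which RNA levels show.

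The sequence below shows where the KO allele was aimed, since a level over the whole gene has to be read against it. The paper places the mutation in exon 2 of Dnm1l. In the annotation (GENCODE M21, GRCm38) Dnm1l lies on the minus strand at chr16:16312230-16358959, and exon 2 at chr16:16345998-16346145. It has 148 bases, a length that leaves a remainder of 1 when divided by 3, and is present in 6 of the 7 annotated transcripts and coding over its full length in 4. The paper counts exons on transcript Dnm1l-203, and the same bases are the second exon of 5 transcripts, Dnm1l-201 and Dnm1l-203 among them. The sequence is read here from Dnm1l-201, 5′ to 3′ on the gene's strand, in lower case throughout.

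Dnm1l exon 2: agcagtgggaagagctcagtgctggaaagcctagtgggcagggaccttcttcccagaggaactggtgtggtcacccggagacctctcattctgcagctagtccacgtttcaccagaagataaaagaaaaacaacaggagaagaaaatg

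These bases make up 2.84% of the exonic length of Dnm1l. A count over the whole gene therefore says little about whether exon 2 was present, and no count per exon was used here. The paper checked the genotype by other means. Besides genotyping by PCR, it reports fewer reads at exon 2, less Drp1 protein on blots and weaker Drp1 staining in the artery of KO mice.

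Dnm1l itself was the first gene examined, for its RNA level over the whole gene in each genotype. Levels are given as CPM, the count of a gene relative to the TMM-scaled total of its library. Under normal conditions Dnm1l stood at 63.8, 65.7 and 90.9 CPM in the WT mice and at 54.8, 60.8, 57.9 and 62.2 CPM in the KO mice. All 4 KO mice lay below all 3 WT mice, although the closest pair, 63.8 and 62.2 CPM, nearly touched. After ischemia Dnm1l stood at 81.0, 63.1 and 80.9 CPM in the WT mice and at 72.6, 69.0, 76.0 and 60.0 CPM in the KO mice, so that the genotypes overlapped. The log2 fold change of KO over WT was −0.32 (SE 0.16, 95% interval −0.67 to 0.04) under normal conditions and −0.11 (SE 0.16, −0.47 to 0.24) after ischemia. Neither passed the quasi-likelihood test of edgeR after adjustment over all genes by Benjamini and Hochberg (FDR 0.974 and 0.872). With 1 mouse left out at a time, the difference under normal conditions ran from −0.41 (without WT normal replicate 1) to −0.13. The −0.13 was the value without the WT library of lane 1, which had the highest Dnm1l level of all. Without WT normal replicate 1 or 2 Dnm1l reached an unadjusted p under 0.05 in edgeR, and it was called in none of these runs.

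Dnm1l was the 1 gene of the 10 whose KO and WT values did not overlap under normal conditions. Over all genes tested 1.9% did not overlap with KO lower, 2.59% with KO higher and 4.5% in either direction. Ratios within a library do not depend on how libraries are scaled. The ratio of Fis1 to Dnm1l was 0.919, 0.929 and 0.597 in the WT mice under normal conditions and 1.06, 1.19, 1.07 and 1.05 in the KO mice. It was higher in every KO mouse than in any WT mouse. The same held for the ratios of Oma1 and Yme1l1 to Dnm1l, so for 3 of the other 9 genes, which all share Dnm1l as the denominator, against 7.29% of 17692 genes. After ischemia the ratio of Fis1 to Dnm1l ran from 0.775 to 1.05 in WT and from 0.815 to 1.46 in KO mice, and the genotypes overlapped.

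The receptors and adaptors that bring Drp1 to the outer membrane differed in how steady they were. Fis1, a small tail-anchored protein, was at 58.7, 61.0 and 54.2 CPM in WT and 58.2, 72.2, 61.8 and 65.5 CPM in KO mice under normal conditions. After ischemia Fis1 was at 62.8, 66 and 65.7 CPM in WT and 67.1, 71.0, 61.9 and 87.7 CPM in KO mice. All 3 WT mice after ischemia lay above all 3 WT mice under normal conditions, which 6.63% of all genes did as well, and the log2 difference was 0.16 (SE 0.16, FDR 0.711). Fis1 was the 1 gene of the 10 without overlap in that comparison, and its spread within groups was smaller than that of all but 4.31% of 9216 genes with a mean of at least 10 CPM.

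Mff, the adaptor regarded as the main site of Drp1 recruitment, was at 47.3, 58.2 and 60.7 CPM in WT and 48.9, 57.1, 47.4 and 66.4 CPM in KO mice under normal conditions. After ischemia Mff was at 48.4, 44.9 and 54.4 CPM in WT and 46.4, 61.5, 50.8 and 69.4 CPM in KO mice. The groups overlapped in every comparison of Mff, whose log2 fold changes between genotypes were −0.01 (SE 0.18) under normal conditions and 0.21 (SE 0.18) after ischemia.

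Mief1 and Mief2 encode MiD51 and MiD49, paired adaptors that hold Drp1 at the membrane. Mief1 was at 28.6, 43.4 and 38.7 CPM in WT and 19.8, 28.7, 28.8 and 36.1 CPM in KO mice under normal conditions. It was at 31.5, 32.0 and 26.6 CPM in WT and 29.2, 31.2, 35.8 and 25.7 CPM in KO mice after ischemia. The difference of Mief1 between KO and WT under normal conditions, −0.38 on the log2 scale (SE 0.21, FDR 0.974), was of the same size as that of Dnm1l, but 3 of its 4 KO values lay within the WT range.

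Mief2 varied far more from mouse to mouse than its partner. Under normal conditions Mief2 was at 7.52, 43.6 and 20.8 CPM in the 3 WT mice and at 20.5, 30.2, 15.8 and 35.4 CPM in the 4 KO mice. After ischemia it was at 11.3, 20.7 and 13.7 CPM in WT and 17.5, 26.2, 20.7 and 24.0 CPM in KO mice. The WT mice under normal conditions held both the lowest and the highest Mief2 value of all 14, a span of 5.80-fold, against 2.19-fold for Mief1.

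The outer membrane GTPases showed the same contrast between paired genes. Mfn1 was at 49.5, 71.8 and 42.4 CPM in WT and 50.2, 49.6, 40.6 and 66.1 CPM in KO mice under normal conditions, and at 43.5, 43.9 and 31.1 CPM in WT and 35.8, 39.7, 53.4 and 70.9 CPM in KO mice after ischemia. Mfn2, which also tethers mitochondria to the endoplasmic reticulum, was at 57.7, 277 and 142 CPM in WT and 106, 144, 104 and 213 CPM in KO mice under normal conditions. After ischemia Mfn2 was at 114, 86.6 and 96.8 CPM in WT and 109, 165, 163 and 205 CPM in KO mice. As with Mief2, the lowest and the highest Mfn2 values were those of WT replicates 1 and 2 under normal conditions, 4.81-fold apart. Within a library Mfn2 exceeded Mfn1 in all 14 mice, by 1.17-fold in WT normal replicate 1 and by 1.97-fold to 4.16-fold in the others.

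Opa1, the inner membrane GTPase that also shapes cristae, was at 37.5, 168 and 115 CPM in WT and 63.9, 101, 69.6 and 148 CPM in KO mice under normal conditions. After ischemia Opa1 was at 54.1, 61.0 and 55.0 CPM in WT and 56.5, 127, 112 and 90.5 CPM in KO mice. The 3 WT mice after ischemia lay close together and at the low end, with 1 KO mouse between them, and the span over all 14 mice was 4.48-fold.

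The proteases that cut Opa1 were among the steadier genes. Oma1, which acts when the membrane potential falls, was at 9.24, 10.8 and 13.5 CPM in WT and 10.7, 12.1, 10.8 and 12.3 CPM in KO mice under normal conditions, and at 12.1, 8.06 and 13.3 CPM in WT and 10.6, 12.3, 10.8 and 14 CPM in KO mice after ischemia. Yme1l1, which cuts Opa1 without stress, was at 62.4, 62.5 and 83.4 CPM in WT and 63.2, 65.3, 68.1 and 67.7 CPM in KO mice under normal conditions, and at 81.1, 60.0 and 65.9 CPM in WT and 58.0, 57.8, 70.7 and 55.1 CPM in KO mice after ischemia. For neither gene were the groups free of overlap in any of the 4 comparisons.

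**Figure D1:**
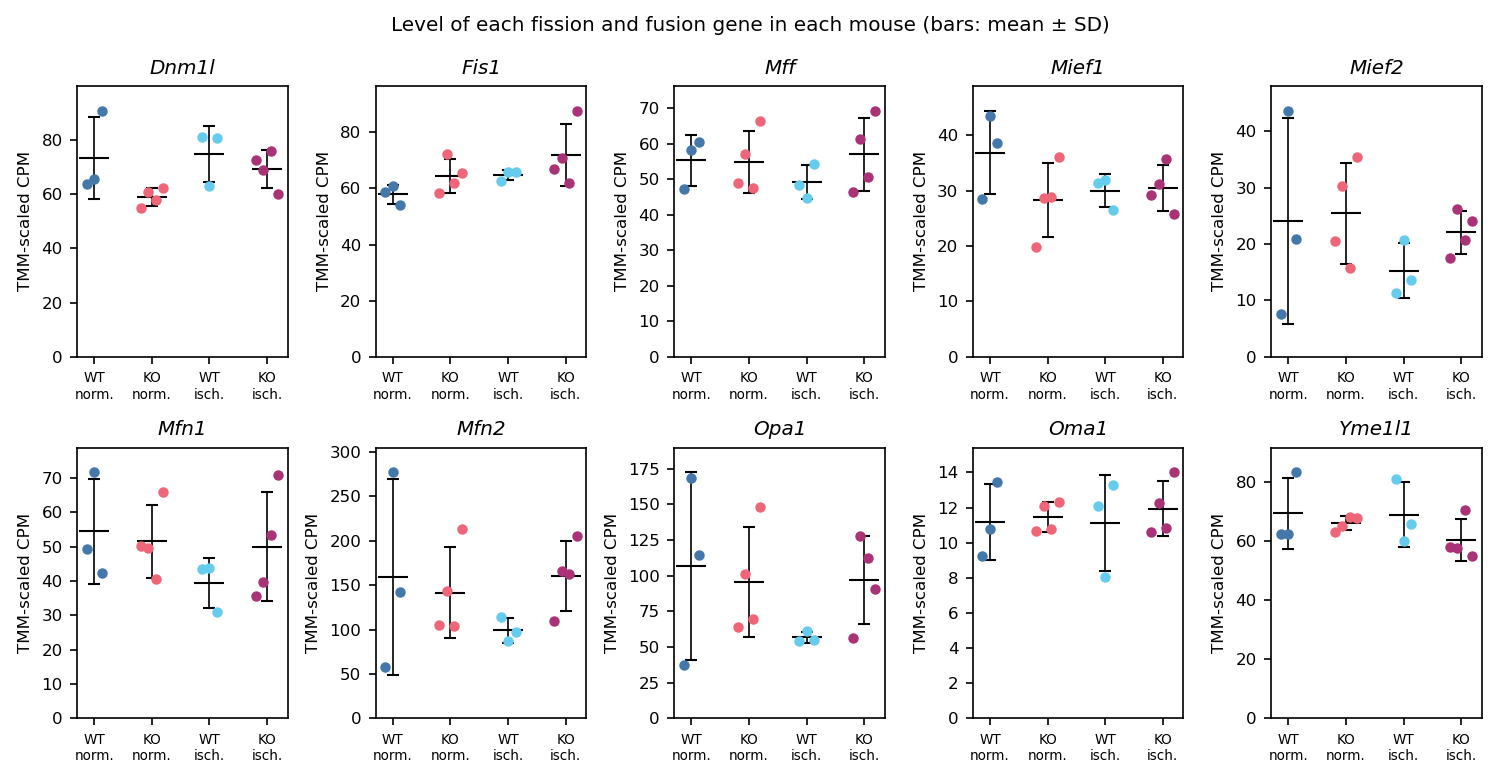
Level of each of the 10 genes (y axis, TMM-scaled CPM from 0) in each of the 14 mice, by group (x axis), with the mean and SD of each group as bars. The WT mice under normal conditions spread most for Mief2 (7.52 to 43.6 CPM), Mfn2 (57.7 to 277 CPM) and Opa1 (37.5 to 168 CPM).

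Divided by exonic length, the mean level over 14 mice was highest for Fis1 at 38.1 CPM per kb, followed by Mfn2 at 27.3 and Dnm1l at 13.2 CPM per kb. Opa1 was at 11.4 CPM per kb, and Mief2, Mfn1 and Yme1l1 lay close together at 8.10, 8.04 and 8.22 CPM per kb. Mff, Oma1 and Mief1 were the lowest at 5.58, 5.35 and 3.84 CPM per kb. The length counts every base in an exon of any annotated transcript, 9757 bases for Mff and 1714 for Fis1. The ranking between genes depends on that choice, since before division Mff averaged 54.4 CPM and Fis1 65.3 CPM. The order within neighbouring pairs was not fixed over mice, since Fis1 ran from 31.7 to 51.2 and Mfn2 from 11.1 to 53.4 CPM per kb, and Dnm1l from 10.5 to 17.5 and Opa1 from 4.77 to 21.4 CPM per kb. Exons shared with other annotated genes covered 4.67% of Dnm1l, 2% of Mff and 2.63% of Mief1 and none of the other genes. The use of strand in counting is not given in the sources used here, so reads in these stretches cannot be assigned with certainty.

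Between KO and WT mice, 0 of the 10 genes passed the limits of FDR under 0.05 and fold over 1.5 in edgeR under normal conditions, where 0% of 17693 genes did, and 0 did after ischemia, where again 0% did. At an unadjusted p under 0.05, 0 of the 10 stood out in either condition in the edgeR fit reported, against 5.25% and 6.48% of all genes. DESeq2 called 0 of the 10 in both. Other edgeR runs put some of the 10 below that unadjusted limit, and none was called. Among these were Mfn2 and Opa1 after ischemia when the compared groups alone were fitted. Dnm1l and Mief1 were among them under normal conditions without WT normal replicate 1. In the fit reported 7 of the 10 estimates under normal conditions were below 0, with a median log2 fold change of −0.07 beside −0.02 over all genes. After ischemia 8 of the 10 were above 0, with a median of 0.18 beside −0.03 over all genes.

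The largest of these estimates after ischemia were those of Opa1, Mfn2 and Mief2. Opa1 was 0.77 higher in KO than in WT mice on the log2 scale (SE 0.42, interval −0.14 to 1.68, FDR 0.715) and Mfn2 0.70 higher (SE 0.41, −0.19 to 1.58, FDR 0.718), with Mief2 at 0.54 (SE 0.45, FDR 0.765). Groups overlapped for each of the 10 genes, and 10.7% of all genes did not overlap in this comparison (4.74% with KO higher, 5.97% with KO lower). The intervals reached from below no difference up to 3.00-fold for Mfn2 and 3.21-fold for Opa1, so a rise of that size could not be told from none with these mice.

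Ischemia was compared with normal conditions within each genotype. In WT mice 0 of the 10 genes were called by edgeR, where 0.0113% of all genes were, 0 had an unadjusted p under 0.05, against 9.57%, and DESeq2 called 0. Of the 10 estimates 8 were below 0, led by Opa1 at −0.91 (SE 0.45, interval −1.89 to 0.06, FDR 0.529), Mfn2 at −0.68 (SE 0.44, FDR 0.579) and Mief2 at −0.65 (SE 0.48, FDR 0.623). The median was −0.23 beside −0.01 over all genes, and of all genes 11% did not overlap between these groups (6.63% with ischemia higher, 4.42% with it lower). The low values of Opa1 after ischemia stand against a WT control group that itself ran from 37.5 to 168 CPM. Without WT normal replicate 2 the estimates of Opa1, Mfn2 and Mief2 were −0.44, −0.03 and 0.09, and without replicate 1 they were −1.33, −1.09 and −1.09, when 3 of 10 genes, these, reached an unadjusted p below 0.05 and 0 were called. With the replicate number as a block 0 of 10 were called, and 0 of all genes in place of 2.

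In KO mice the same comparison gave 0 of 10 genes called by edgeR, where 0.294% of all genes were, 0 at an unadjusted p under 0.05, against 13.2%, and 0 called by DESeq2. Dnm1l had the smallest p of the 10, with a log2 fold change of 0.24 (SE 0.15, interval −0.09 to 0.56, FDR 0.541). Opa1 was at 0.02 (SE 0.39) and Mfn2 at 0.18 (SE 0.38), and 0 of the 10 genes were free of overlap, against 11.1% of all genes (5.49% with ischemia higher, 5.6% with it lower). The comparisons in KO and WT mice share no animals, but each shares its control mice with the genotype comparison under normal conditions.

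The difference between the 2 ischemia effects, an interaction term, was tested directly. It was 0.93 for Opa1 (SE 0.60, FDR 0.946) and 0.87 for Mfn2 (SE 0.58, FDR 0.946), so an effect that differs between genotypes was not detectable. In edgeR the interaction called 0 of 10 genes beside 0% of all genes, with 0 of 10 at an unadjusted p under 0.05 beside 4.32%. Averaging over the other factor, genotype called 0 of 10 beside 0%, and ischemia 0 of 10 beside 0.927% of all genes (0.616% higher), and again 0 of 10 had an unadjusted p under 0.05, beside 7.77% and 18.1%. In the F-test among all 4 groups 0 of 10 were called beside 0.13%, and in the 3-group tests of the study's design 0 of 10 beside 0.227% (WT normal, KO normal and KO ischemia) and 0% (WT normal, WT ischemia and KO ischemia). None of the 10 had an unadjusted p under 0.05 in these F-tests in edgeR, beside 12.5%, 10.4% and 7.06% of all genes, and DESeq2 called 0 of 10 in each of the tests named in this paragraph.

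**Figure D2:**
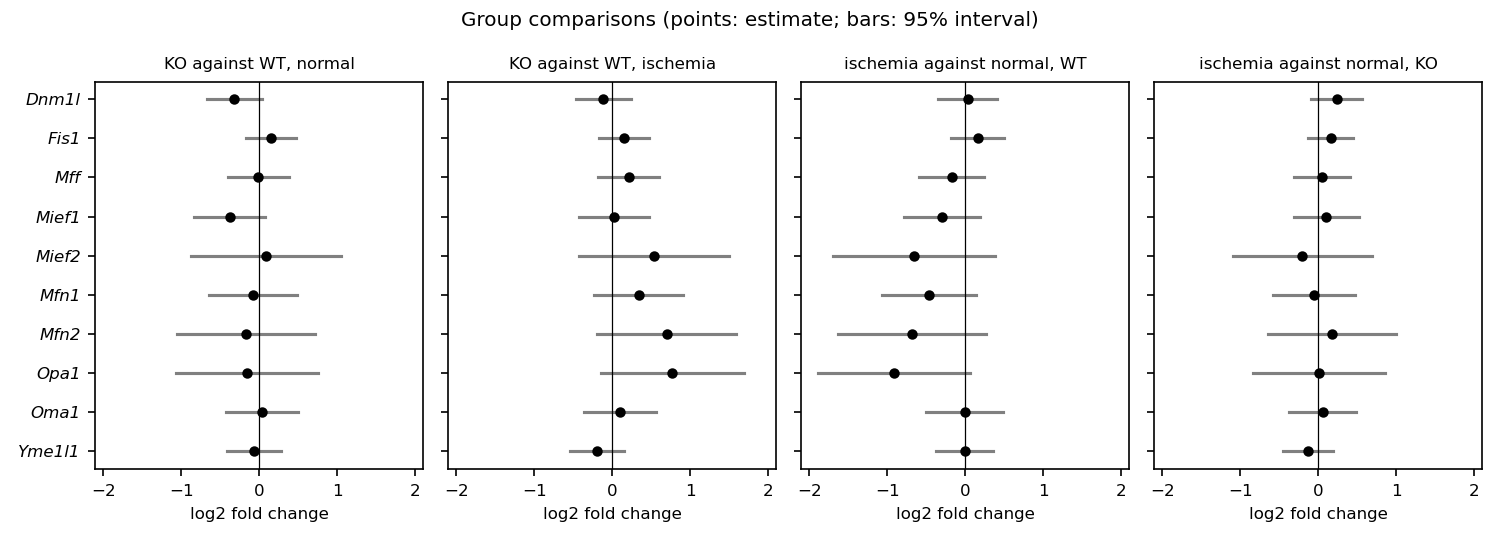
Log2 fold change (x axis) of each of the 10 genes (y axis) in the 4 comparisons of group means, with 95% intervals as bars. The intervals of all 10 genes include 0 in each panel, and those of Mief2, Mfn2 and Opa1 are the widest.

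Mief2, Mfn2 and Opa1 had the widest intervals, and within groups they had more spread than 85.9%, 82.7% and 84.5% of the 9216 genes. Marker genes of brown adipocytes differed between the same mice. Ucp1, the uncoupling protein of brown fat, was at 40.2, 3948 and 639 CPM in WT and 557, 2784, 1149 and 4072 CPM in KO mice under normal conditions, and at 66.3, 776 and 304 CPM in WT and 604, 3272, 2640 and 2921 CPM in KO mice after ischemia. The summed level of the 6 brown markers Ucp1, Cidea, Elovl3, Cox8b, Cox7a1 and Dio2 ran from 188 to 7049 CPM in WT and 1200 to 6436 CPM in KO mice under normal conditions, and from 284 to 1549 CPM in WT and 1037 to 5042 CPM in KO mice after ischemia. None of the 6 was at 0 in any mouse, although Elovl3 was at 0.0295 CPM in WT normal replicate 1. Smooth muscle markers, which define the artery wall, summed to 7080 to 35759 CPM over all mice, of which Acta2 made up 3357 to 18598 CPM and Myh11 2726 to 13667 CPM. Tagln, another marker of smooth muscle, was at only 0.675 to 5.78 CPM, and the cause was not tested. In such bulk samples a change in the share of a cell type and a change of RNA per cell cannot be told apart.

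A score, the mean log2 CPM of the 6 brown markers in each mouse, was therefore entered beside the group in the fit of all genes. Under normal conditions it averaged 6.44 ± 2.90 (SD, n = 3) in WT and 7.79 ± 0.999 (SD, n = 4) in KO mice. After ischemia it averaged 5.52 ± 1.49 (SD, n = 3) in WT and 7.91 ± 1.08 (SD, n = 4) in KO mice. On this score 3 of the 10 genes were called, all with a positive slope, where 22.8% of all genes were called, 13.5% with a positive and 9.3% with a negative slope. The slope in log2 CPM per log2 unit of score was 0.39 for Mief2 (SE 0.05, FDR 8.2e-05), 0.35 for Opa1 (SE 0.05, FDR 0.000578) and 0.31 for Mfn2 (SE 0.06, FDR 0.00421). With 4 of 10 genes at an unadjusted p under 0.05 beside 35.4% of all genes, the share among the 10 was near that of the whole transcriptome.

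The other 7 genes lay flatter against the score. Mief1 had a slope of 0.10 (SE 0.04, unadjusted p = 0.0456, FDR 0.132 in edgeR), Mfn1 one of 0.10 (SE 0.06), Mff one of 0.08 (SE 0.04) and Fis1 and Oma1 one of 0.03 each (SE 0.03 and 0.05). Dnm1l was at −0.0032 (SE 0.04, interval −0.09 to 0.08, FDR 0.965) and Yme1l1 at −0.01 (SE 0.04). WT normal replicate 1, the mouse with the lowest score, and replicate 2, the mouse with the highest, had 63.8 and 65.7 CPM of Dnm1l but 57.7 and 277 CPM of Mfn2. Among the 18 pairs of mice within a group, the mouse with the higher score also had the higher level in 16 pairs for Mief2 and for Opa1 and in 14 for Mfn2, against 9 for Dnm1l and 7 for Yme1l1. Fis1 and Oma1 followed the same order in 15 pairs each, with shallow slopes.

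**Figure D3:**
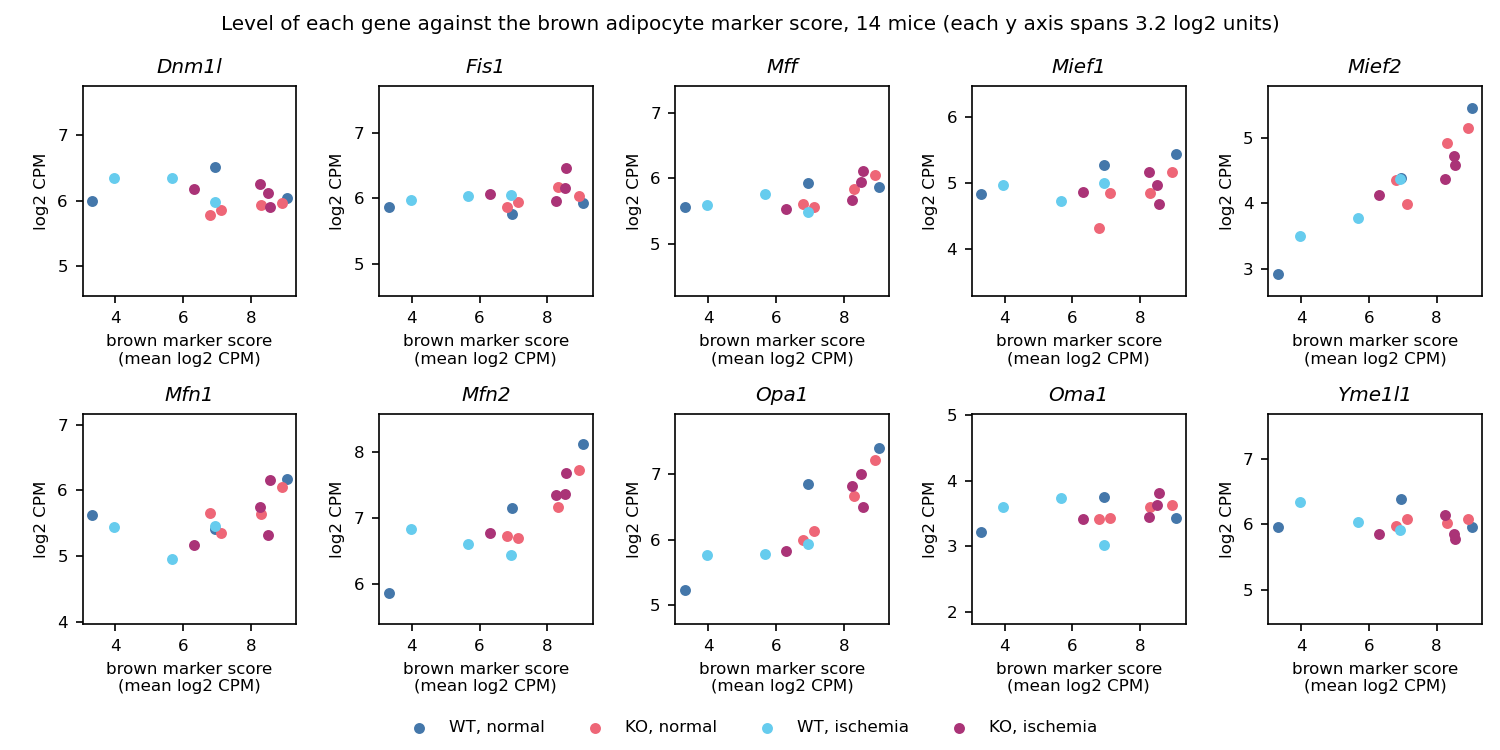
Level of each gene (y axis, log2 CPM, each axis spanning 3.2 log2 units) against the brown adipocyte marker score (x axis, mean log2 CPM of 6 markers) in 14 mice coloured by group. Mief2, Mfn2 and Opa1 climb with the score (slopes 0.39, 0.31 and 0.35), while Dnm1l and Yme1l1 stay level.

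These slopes rest partly on the WT mice at the ends of the score. Without WT normal replicate 1 the slope of Mfn2 was 0.23 (FDR 0.107) and without replicate 2 it was 0.25 (FDR 0.0562), so its call was lost in both. With both of them left out, 2 of the 10 genes were called, Mief2 at 0.32 (FDR 0.0173) and Opa1 at 0.32 (FDR 0.0454), beside 7.33% of all genes, while Mfn2 was at 0.19 (FDR 0.259). Adding the replicate number as a block left 1 of the 10 called, Mief2 at 0.51, with Mfn2 at 0.46 (FDR 0.111) and Opa1 at 0.40 (FDR 0.151).

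The slopes were not confined to the brown score, and whether that score is specific to brown fat was not tested. A score of 5 white adipocyte markers (Adipoq, Plin1, Lep, Retn and Fabp4) was put in its place. Of these, Lep did not simply follow the brown score. After ischemia every WT mouse had more Lep than any KO mouse, whereas the brown score averaged higher in KO mice. Lep was nevertheless lowest in WT normal replicate 1, the mouse with the lowest brown score. The white score gave slopes of 0.51 for Mief2, 0.48 for Opa1 and 0.45 for Mfn2. All 3 were called in edgeR (FDR 0.000392, 0.00051 and 0.00121) beside 18.6% of all genes. Leaving Ucp1 out of the brown score gave 0.40, 0.37 and 0.32. A smooth muscle score ran the other way, with slopes of −0.98 for Mief2 (FDR 0.0346), −0.79 for Opa1 (FDR 0.0954) and −0.75 for Mfn2 (FDR 0.0985) in edgeR, where 10.9% of all genes were called. That score weighs Acta2, Myh11, Cnn1, Smtn, Des and the low Tagln (0.675 to 5.78 CPM) equally. Its markers did not all move together. Des was highest in KO ischemia replicate 4 (361 CPM), Acta2 and Myh11 in WT ischemia replicate 1 (18598 and 13667 CPM). What part of the differences between mice came from fat carried along with the artery was not tested.

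With the brown score as a covariate, the estimates of Mief2, Mfn2 and Opa1 moved in different ways by comparison, and none was called. Between KO and WT mice after ischemia, Opa1 went from 0.77 to −0.17, Mfn2 from 0.70 to −0.16 and Mief2 from 0.54 to −0.35, with FDR of 0.96, 0.971 and 0.855 in edgeR. For ischemia in WT mice, Opa1 went from −0.91 to −0.30, Mfn2 from −0.68 to −0.05 and Mief2 from −0.65 to −0.01. Between genotypes under normal conditions, Opa1 went from −0.16 to −0.46, Mfn2 from −0.17 to −0.38 and Mief2 from 0.09 to −0.16, with FDR of 0.503, 0.645 and 0.804 in edgeR. For Dnm1l the genotype estimate under normal conditions was −0.31 with the covariate and −0.32 without it. For Mief1 it was −0.50 with the covariate (unadjusted p = 0.0179, FDR 0.418 in edgeR) and −0.38 without it. After ischemia the direction of Opa1, Mfn2 and Mief2 between genotypes thus depended on whether the marker score was in the model. Mief1 changed sign as well (0.02 without the score, −0.21 with it, FDR 0.931 in edgeR). Mfn1 (0.34 without the score, 0.08 with it) and Dnm1l (−0.11 and −0.10) kept their direction.

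The promoters of the 3 genes that moved with the score are shown because these genes moved together with it. RefSeq windows (GRCm38.p6) of 250 bases before to 50 after the transcription start were found for all 10 genes. Capitals mark matches, on either strand, to the CRE half-site TGACGT and the E-box CACGTG. The windows lie at chr16:29579084-29579383 (plus strand) for Opa1, chr4:147904649-147904948 (minus strand, 1 of 3 annotated windows) for Mfn2 and chr11:60728148-60728447 (plus strand) for Mief2.

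Opa1: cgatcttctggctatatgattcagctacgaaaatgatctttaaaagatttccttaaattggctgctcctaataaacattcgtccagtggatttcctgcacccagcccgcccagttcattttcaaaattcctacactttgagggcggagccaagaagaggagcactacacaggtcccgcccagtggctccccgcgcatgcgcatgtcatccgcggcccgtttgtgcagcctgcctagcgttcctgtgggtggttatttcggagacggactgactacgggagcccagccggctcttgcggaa
Mfn2: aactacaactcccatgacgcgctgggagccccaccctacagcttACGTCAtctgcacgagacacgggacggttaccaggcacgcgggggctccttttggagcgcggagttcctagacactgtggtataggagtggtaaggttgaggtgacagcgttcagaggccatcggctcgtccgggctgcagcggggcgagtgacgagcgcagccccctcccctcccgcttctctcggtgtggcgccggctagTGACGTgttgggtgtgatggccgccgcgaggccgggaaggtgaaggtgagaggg
Mief2: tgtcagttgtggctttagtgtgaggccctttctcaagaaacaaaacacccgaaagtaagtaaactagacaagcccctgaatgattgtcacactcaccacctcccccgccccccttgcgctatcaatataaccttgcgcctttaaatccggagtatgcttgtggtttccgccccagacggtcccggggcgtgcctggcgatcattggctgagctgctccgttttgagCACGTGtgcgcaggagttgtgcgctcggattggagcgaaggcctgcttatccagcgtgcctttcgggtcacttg

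The CRE half-site was found in Mfn2 and Mief1 and in 7.51% of 32851 windows of all genes, and the E-box in Mief2 and in 7.15%. These shares are per window and not per gene. The 3 windows of Mfn2 overlap and hold 1, 2 and 2 CRE matches, and the window printed is 1 of those with 2. The ERR half-site AAGGTCA, searched in the same way, was in none of the 10 and in 4.72% of all windows. The 3 genes had no motif of these 3 in common, and a match is a run of letters and not a measured binding site.

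Genes whose level followed the members most closely over the 14 mice were ranked by Pearson's r of log2 CPM among 9216 genes, as a description and with no test, since they were picked for likeness. For Opa1 the nearest were Cs (r = 0.986), Sdha (0.985), Ppp2r5a (0.983), Ywhag (0.982) and Mut (0.982), the first of these encoding citrate synthase and the next a subunit of succinate dehydrogenase. Those for Mfn2 were Mrps31 (0.978), Rsph3b (0.977), Mrpl3 (0.972), Mrpl19 (0.971) and Churc1 (0.969), where Mrps31, Mrpl3 and Mrpl19 encode mitochondrial ribosomal proteins. Dnm1l was nearest to Tnks2 (0.926), Edem3 (0.895), Pkn2 (0.895), Ankib1 (0.894) and Nckap1 (0.892), none of which belongs to the lists of this pathway.

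A wider list of the pathway held 54 symbols, of which 49 were in the table and all of those were tested. Marchf5, Miga1, Miga2 and Micos10 are newer names of listed genes that were tested as March5, Fam73a, Fam73b and Minos1, and Micos13 was not found under that symbol and was not analysed here. The list covers fission factors, regulators of Drp1, fusion partners, the MICOS complex of the cristae junction, transport adaptors and related dynamins. On the brown score 21 of the 49 were called with a positive slope and 2 with a negative one in edgeR, beside 13.5% and 9.3% of all genes, with a median slope of 0.12 beside 0.0018 over all genes. Of the MICOS genes all 6 tested were called, without Micos13, among them Apool (0.51, FDR 2.02e-05), Chchd3 (0.45, FDR 4.63e-05) and Minos1 (0.28, FDR 9.7e-05). Of the fusion partners 8 of 10 tested were called, including Mtch2 (0.41, FDR 3.53e-05), Fam73b, a mitoguardin (0.47, FDR 0.00011), the prohibitins Phb (0.43, FDR 0.000251) and Phb2 (0.29, FDR 0.000339) and the protease subunit Afg3l2 (0.38, FDR 0.000314).

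Genes on the fission side of the wider list were called less uniformly, where 13.5% of all genes had a called positive and 9.3% a called negative slope. Of 10 other fission factors 1 was called with a positive slope, Mtfp1, an inner membrane protein (0.77, FDR 0.000304), and 1 with a negative one, Pdzd8 (−0.13, FDR 0.0254). Of 17 regulators of Drp1, 5 had a called positive slope, including the ubiquitin ligase gene Mul1 (0.25, FDR 0.000375), and 1 a negative one, the kinase gene Rock1 (−0.30, FDR 0.0443). Pdzd8 and Rock1 were named after their values were seen. Of 4 transport adaptors 1 was called, and of 2 related dynamins 0 were called or had an unadjusted p under 0.05 in edgeR. The sublists were counted in edgeR alone, and whether fission and fusion genes differ in slope was not tested.

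**Figure D4:**
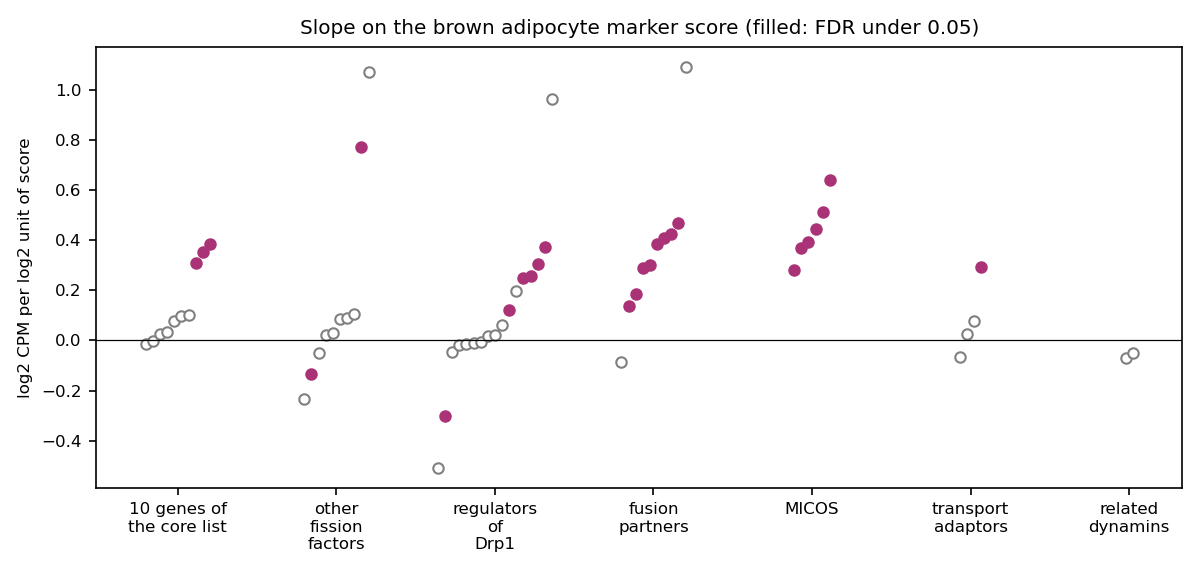
Slope on the brown adipocyte marker score (y axis, log2 CPM per log2 unit of score) for each of the 10 genes and the 49 genes of the wider list, by sublist (x axis). Filled points have an FDR under 0.05, as 3 of the 10 genes, 6 of 6 MICOS genes and 8 of 10 fusion partners do, beside 22.8% of all genes. Of 10 other fission factors 1 was called with a positive and 1 with a negative slope, and of 17 regulators of Drp1 5 and 1. Of 4 transport adaptors 1 was called, and of 2 related dynamins 0.

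In each of the group comparisons 0 of the 49 genes were called in edgeR, with 0 to 9 of them at an unadjusted p under 0.05. The 9 belonged to ischemia in WT mice, beside 9.57% of all genes tested, and ischemia in KO mice gave 2 beside 13.2%. Genotype gave 0 beside 5.25% under normal conditions and 3 beside 6.48% after ischemia, and the interaction 1 beside 4.32%. Averaged over the other factor, genotype gave 3 beside 7.77% and ischemia 2 beside 18.1%. The F-tests gave 3 beside 12.5% among 4 groups, and 1 beside 10.4% and 2 beside 7.06% in the 3-group tests. Between KO and WT mice after ischemia the smallest p values were those of Inf2, a formin at sites of fission (−0.63, FDR 0.715), and Ccnb1, counted 0, 0 and 1 times in WT and 0, 11, 17 and 30 times in KO mice. Ccnb1 and Parl, a rhomboid protease (−0.58, FDR 0.513), led for ischemia in WT mice, where the median over the 49 genes was −0.37 beside −0.01 over all genes. In KO mice Inf2 (−0.58, FDR 0.226) and Dnm1 (−1.34, FDR 0.277) led. Under normal conditions the smallest p between genotypes were those of Cdk1 and Pld6, whose counts reached 0 in at least 1 mouse, and their FDR was 0.974.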

How the data were processed

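RNA from the SMA of 14 mice was sequenced. The authors deposited 1 table of read counts per gene symbol, without normalization, with 0 columns left unused here. The submitters' processing notes name HISAT2 2.0.4 and mm10. The counting program, annotation and use of strand are not given in the sources used here. Total counts ran from 25612646 to 40255851 per mouse and those of the 10 genes from 237 to 7812, and their coefficient of variation within groups from 2.75% (Fis1, WT ischemia) to 76.1% (Mief2, WT normal).

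Counts were filtered by filterByExpr, scaled by TMM and tested with edgeR 4.0.16 in R 4.3.3 by the quasi-likelihood test with Benjamini-Hochberg adjustment over all genes, in 1 fit of 4 groups. Calls needed an FDR under 0.05 and a fold over 1.5, the study's limits; the slope on the marker score (log2 CPM, prior count 2) needed the FDR alone. The study's RVM F-test was replaced because the values are counts. Coordinates come from GENCODE M21 on GRCm38. Steps were tested on simulated data. P-values measure the spread between these mice only. The lowest chi-square per degree of freedom over 18 pairs of replicates within groups was 60.5, so none of these pairs held copies of 1 library. Same-numbered WT mice of the 2 conditions deviated together in all 3 pairs (r 0.226 to 0.433), a pairing that comes from the data and not from the labels.

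The 10 genes were named always. From the wider list up to 10 called genes, or the 2 with the smallest p, were named per comparison, and the 5 genes most like Dnm1l, Mfn2 and Opa1. Members and lists were chosen with earlier results of these data known. Alternatives were DESeq2 1.42.0 and its size factors, no filter, no fold limit, the compared groups alone, the replicate block, the score as covariate and each mouse left out. The white, smooth muscle and Ucp1-free scores and the fit without both score extremes were added after the data were seen.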

Additional observations from a re-analysis of the deposited data

Results flagged for a closer look

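Within groups of 4 mice, 3 of 32 sets of values held 1 mouse far from the rest by Dixon's criterion at 95%, which chance gives in about 1 in 20. The log2 ratio of Mfn2 to Mfn1 was 2.06 in KO ischemia replicate 2, against 1.53 to 1.61 in the other 3 mice. The log2 ratio of Fis1 to Dnm1l was 0.25 in KO normal replicate 2, against 0.07 to 0.09 in the others. The log2 ratio of Mief2 to Mief1 was −0.87 in KO normal replicate 3, against −0.03 to 0.07 in the others.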

How the results depend on the processing

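Among the 10 genes, 0 were called in every group comparison under each alternative run and without each mouse. On the brown score 3 were called in the fit reported and 1 with the replicate block, and 2 to 3 without each mouse in turn. Over all genes the block left 266 called on the score beside 4036, both score extremes left out gave 1491, and DESeq2 gave 5335. Same-numbered mice had r over 0.1 in 14 of 19 pairs (−0.354 to 0.673). This held in every pair of WT normal with WT ischemia but not in every pair of any other group comparison. The block nevertheless joined same-numbered mice of all groups in each comparison, and the labels name no pairs. Apart from Mfn2 and Opa1 on the score, the block changed no call of the 10 genes.

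Counts of all genes called moved by over 1.5 times under several settings. DESeq2 called 50 and 32 between genotypes (edgeR 0 and 0), 112 and 613 for ischemia in WT and KO mice (edgeR 2 and 52), 13 for the interaction (0), 91 for genotype (0), 876 for ischemia over genotypes (164), 900 among 4 groups (23), and 575 and 168 in the 3-group tests (39 and 0). Without the low-count filter 62 were called among 4 groups and 73 and 3 in the 3-group tests. Fitting the compared groups alone gave 0 and 267 for ischemia in WT and KO mice. The block gave 0 for ischemia in WT mice, 1 for genotype and 14 among 4 groups. The score as covariate gave 4 and 322 for ischemia in WT and KO mice, 4 for genotype, 461 for ischemia, 195 among 4 groups and 614 and 2 in the 3-group tests. Leaving out 1 mouse gave 0 to 29 between genotypes under normal conditions, 0 to 3 for ischemia in WT mice, 5 to 174 in KO mice, 0 to 102 for genotype, 2 to 208 among 4 groups, 1 to 178 and 0 to 2 in the 3-group tests, 60 to 361 for ischemia and 1803 to 4564 on the score. WT normal replicate 2 was the mouse left out at 29, 174, 102, 208, 178 and 1803, and replicate 1 at 361. The causes were not tested. Without WT normal replicate 2, Mief2 and Mfn2 stood at 0.84 and 0.50 between genotypes under normal conditions, not called (FDR 0.464 and 0.605), against 0.09 and −0.17 with it, and without replicate 1 they stood at −0.33 and −0.56.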
